A study of Homo sapiens with 24 samples.

Results

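The genes described here are the ligands and receptors of axon guidance: the semaphorins with their plexin and neuropilin receptors, the ephrins with the EPH receptors, the SLITs with the ROBO receptors, and the netrins. They were taken by symbol from the gene tables of all 24 libraries. The rule used no measured values but was set with earlier results of these data known. Of 58174 gene symbols kept, 64 were members. They comprised 20 semaphorins, 9 plexins, 2 neuropilins, 8 ephrins, 14 EPH receptors, 3 SLITs, 4 ROBO receptors and 4 netrins. A level of at least 1 FPKM (fragments scaled by transcript length and library depth) in at least 3 libraries was reached by 52 members, and only these were tested. The other 12 were SEMA5A, SEMA5B, PLXNA4, PLXNB3, PLXNC1, EPHA1, EPHA7, EFNA2, ROBO4, SLIT3, NTN3 and NTN5.

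The study measured mRNA in HEK293A, an adherent line from human embryonic kidney, to ask how expression follows the stiffness of the extracellular matrix. All cells were grown in DMEM with 10% FBS and antibiotics and were seeded on hydrogels coated with fibronectin. The gels had a stiffness of 1 kPa (soft) or 40 kPa (stiff), and no source used here gives the time on them. Each stiffness was crossed with 4 genotypes, wild type (WT), RAP2A/B/C-tKO (RAP2 tKO), LATS1/2-dKO (LATS dKO) and YAP/TAZ-dKO (YAP/TAZ dKO), with 3 replicates in each of the 8 groups. No source used here says how each line was edited or how many clones it represents, so a genotype cannot be told apart from the clone that carries it. The design text calls the replicates biological. No label says whether they came from separate cultures, so the p-values measure the spread between these libraries.

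Guidance cues steer growing axons by attraction or repulsion, and most of them also control cell contacts, migration and vessel growth outside the nervous system. Semaphorins bind plexins, with neuropilins as co-receptors for the secreted class, and SLITs bind ROBO receptors. Ephrins stay on the cell surface and bind EPH receptor tyrosine kinases on the neighbouring cell. Netrins bind DCC, neogenin and the UNC5 receptors. YAP and TAZ are transcriptional co-activators that bind TEAD factors, the LATS kinases inhibit them, and RAP2 GTPases act upstream of that kinase cascade.

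The depth of the libraries, estimated from the deposited confidence intervals, ranged from 18.46 to 40.19 M fragments, with 30.97 M as the median. In the YAP/TAZ dKO the mean FPKM of YAP1 was 6.06 at 1 kPa and 6.20 at 40 kPa, against 30.9 and 31.6 in WT. For WWTR1, which encodes TAZ, it was 10.0 and 10.7 against 27.3 and 26.3. LATS1 stood at 5.18 and 5.69 FPKM in the LATS dKO, against 12.9 and 12.3 in WT, while LATS2 was not lower, with 3.19 and 3.40 against 2.15 and 2.78. In the RAP2 tKO, RAP2A fell by 0.31 on the log2 scale (adjusted p = 0.00397), RAP2B rose by 0.26 (adjusted p = 0.00084) and RAP2C changed by 0.17 (adjusted p = 0.238). An edit need not lower an mRNA, so those values do not test the labels. Among 6 markers of kidney epithelium, PAX8, CDH16 and SLC12A1 stayed under 1 FPKM in every library, while PAX2, LHX1 and AQP1 reached it. The epithelial keratins KRT8 and KRT18 were abundant, but CDH1 and EPCAM stayed under 1 FPKM.

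A pair of libraries stood apart by base composition. Replicate 3 of the RAP2 tKO at 40 kPa and replicate 1 of the LATS dKO at 40 kPa deviated from their groups along gene GC content, with rank correlations over 15513 genes of -0.60 and -0.57, given as a description. Replicate 3 of the RAP2 tKO at 40 kPa held the lowest value of the 6 RAP2 tKO libraries for 26 of the 52 tested members. Replicate 1 of the LATS dKO at 40 kPa held the lowest of its 6 libraries for 27 of 52. For the other 22 libraries this number lay between 0 and 15. Counts of all tested members without both libraries are given below for each line against WT and, where they moved, for stiffness. Counts by family and by pathway list come from the fit of all libraries.

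In WT cells SLIT2, PLXNB2, ROBO1, PLXNA1 and PLXNA3 stood highest, while other members of the same families were low. FPKM is a level per transcript length, so levels of different genes can be set side by side. In the 6 WT libraries, 11 members averaged at least 10 FPKM, 35 lay between 1 and 10, and 18 were under 1. SLIT2, a secreted repellent, was the highest at 83.3 ± 7.33 FPKM (SD, n = 6). PLXNB2, a receptor for class 4 semaphorins, followed at 72.1 ± 4.69, and its range of 64.2 to 77.2 overlapped that of SLIT2, 76.9 to 96.8. ROBO1, a SLIT receptor, was next at 55.8 ± 3.07, with its highest library at 59.3, below the lowest PLXNB2 library. PLXNA1 (37.6 ± 1.56) and PLXNA3 (29.02 ± 8.66), which signal for secreted semaphorins together with neuropilins, came after ROBO1, and their ranges overlapped. PLXNA3 averaged 32.0 FPKM over all libraries and overlaps LAGE3, which averaged 70.8 FPKM, so its level is uncertain. ROBO3 (9.09 ± 0.759) and NTN1 (7.31 ± 0.321) were lower.

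Among the receptor kinases, EPHB4 (26.1 ± 0.869 FPKM, SD, n = 6 WT libraries) and EPHA2 (21.6 ± 2.56) stood above EPHA3 (9.71 ± 0.519) without overlap. EFNA5 was the highest ephrin at 14.6 ± 1.66. EFNA3 (9.70 ± 1.20) and EFNB2 (8.54 ± 0.380) followed and overlapped. The semaphorins were low throughout, led by SEMA4F (8.503 ± 0.503), SEMA4D (8.37 ± 3.56) and SEMA6C (7.03 ± 0.937), whose ranges overlapped. For the 52 expressed members the deposited 95% interval reached 20.05% of the value to either side, as the median over members. It exceeded 50% for 6 of them, among these SEMA4D at 58.8%. DCC, the attractive netrin receptor, was listed at 0 in 21 of the 24 libraries and reached 0.0814 FPKM at most.

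**Figure D1:**
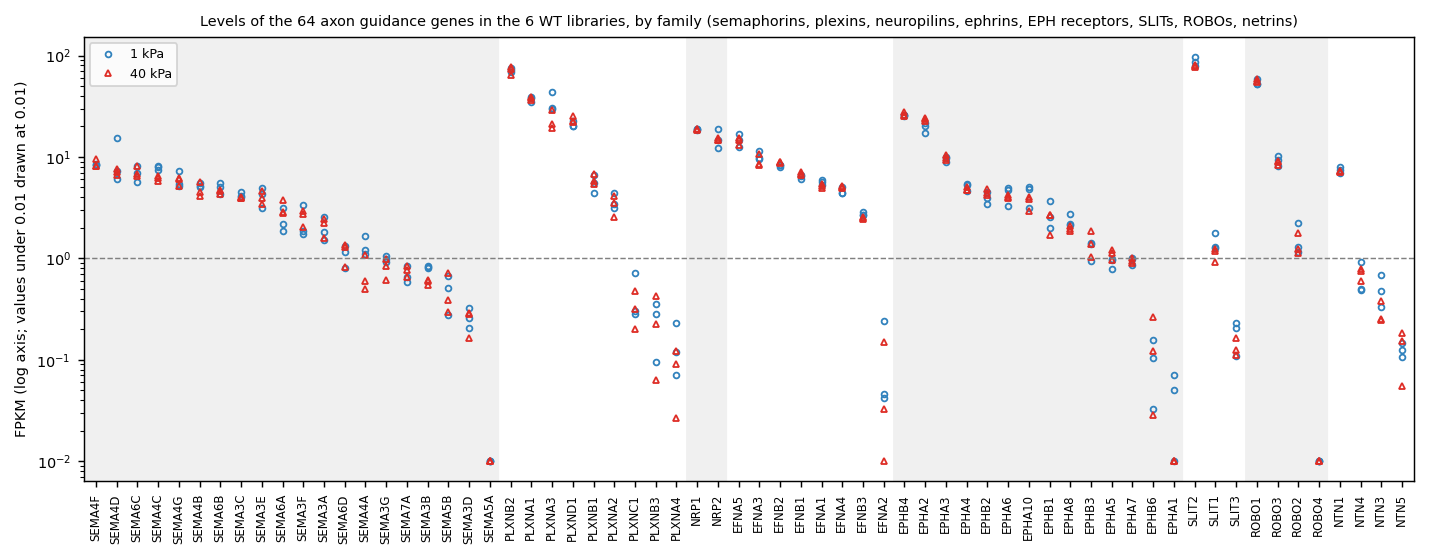
Levels of all 64 genes in the 6 WT libraries, in FPKM on a log axis, ordered by family and by mean level within it (circles 1 kPa, triangles 40 kPa, 1 symbol per library). SLIT2, PLXNB2 and ROBO1 lie above 50 FPKM, and 18 genes average under the dashed line at 1 FPKM.

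Promoter sequence is shown for members on which the comparisons below turn. Of the 64 members, 56 had a promoter in the RefSeq table (build GRCh38.p14, 250 bases before to 50 after the gene's start). These windows were searched on both strands for GGAATG, the core bound by TEAD factors, which reads CATTCC from the opposite strand. They were also searched for TGANTCA, the motif of AP-1 factors. The TEAD core was found in 5 member promoters, those of EPHA2, NTN4, ROBO3, PLXNB3 and SEMA4A, and in 3836 of all 27305 promoters (14%). The AP-1 motif was found in 1 member promoter, that of PLXNC1, and in 2120 of all (7.76%). A match is a string of letters and no measured binding. EPHA2, called in all 3 knockout lines, held its match 73 bases before the start. EFNA1 and ROBO2 had the largest rises on the log2(FPKM + 1) scale in the LATS dKO and in the YAP/TAZ dKO. They held neither motif, and their 250 bases before the start are given for comparison. NTN4 and ROBO3 held the match just after the start, and 30 bases around it are given. All sequences read 5′ to 3′ on the gene's strand and the capitals mark the TEAD core.
EPHA2, chr1:16156070-16156319, minus strand: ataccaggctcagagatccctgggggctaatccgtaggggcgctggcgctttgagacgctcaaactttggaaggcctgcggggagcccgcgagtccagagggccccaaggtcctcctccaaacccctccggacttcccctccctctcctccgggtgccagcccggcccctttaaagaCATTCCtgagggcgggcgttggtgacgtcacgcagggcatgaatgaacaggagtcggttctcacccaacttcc
EFNA1, chr1:155127626-155127875, plus strand: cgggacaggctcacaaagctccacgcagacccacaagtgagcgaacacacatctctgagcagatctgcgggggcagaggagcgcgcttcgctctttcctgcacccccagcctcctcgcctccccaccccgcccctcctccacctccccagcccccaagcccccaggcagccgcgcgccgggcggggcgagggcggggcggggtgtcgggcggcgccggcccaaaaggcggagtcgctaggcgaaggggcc
ROBO2, chr3:76310630-76310879, plus strand: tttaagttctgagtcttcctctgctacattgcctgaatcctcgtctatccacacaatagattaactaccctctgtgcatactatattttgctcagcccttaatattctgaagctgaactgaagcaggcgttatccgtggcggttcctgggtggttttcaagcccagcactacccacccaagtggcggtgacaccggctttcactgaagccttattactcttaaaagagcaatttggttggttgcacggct
NTN4, chr12:95791112-95791141, minus strand: ctactgctcttaGGAATGttccgggagaag
ROBO3, chr11:124876197-124876226, plus strand: cctgccgggtcgGGAATGaccctttcccag

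Each knockout line was compared with WT by averaging its differences on soft and on stiff gels, on the log2(FPKM + 1) scale, which understates changes of low genes. A gene was called at an adjusted p below 0.05. In the RAP2 tKO 11 of the 52 tested members were called, 5 higher and 6 lower (21.2%). Of all 15828 genes tested 16% were called, 7.4% higher and 8.57% lower. In the LATS dKO 27 were called, 10 higher and 17 lower (51.9%), against 33.9% of all genes (16% higher, 17.8% lower). In the YAP/TAZ dKO 30 were called, 16 higher and 14 lower (57.7%), against 50.6% of all genes (23.6% higher, 27% lower). The median size of the log2 change, without its sign, was 0.12 for members and 0.11 for all genes in the RAP2 tKO. It was 0.33 against 0.16 in the LATS dKO and 0.39 against 0.23 in the YAP/TAZ dKO. The level filter bears on these shares, because SEMA3B and SEMA3D passed it only through the LATS dKO libraries, and SEMA7A and EPHB6 only through those of the YAP/TAZ dKO. These 4 genes were tested because they were high in that line, so their calls there say little beyond their levels. Without both GC-deviating libraries the counts were 16, 29 and 35. The shares of all genes called under this setting are not given here, so these counts describe stability and are no result about the members. The RAP2 tKO gained SEMA3C, PLXNA1, EPHB2, EFNB1, ROBO1 and NTN1 and lost PLXND1. The LATS dKO gained EPHB4, EPHB6, EFNB1 and ROBO3 and lost PLXNA3 and SEMA4G. The YAP/TAZ dKO gained SEMA4B, PLXNA2, EPHA5, SLIT1 and NTN1. The comparisons share their 6 WT libraries, so values of a gene in several lines are set side by side and not counted as separate evidence. In bulk RNA, fewer cells with a transcript and less of it per cell cannot be told apart.

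**Figure D2:**
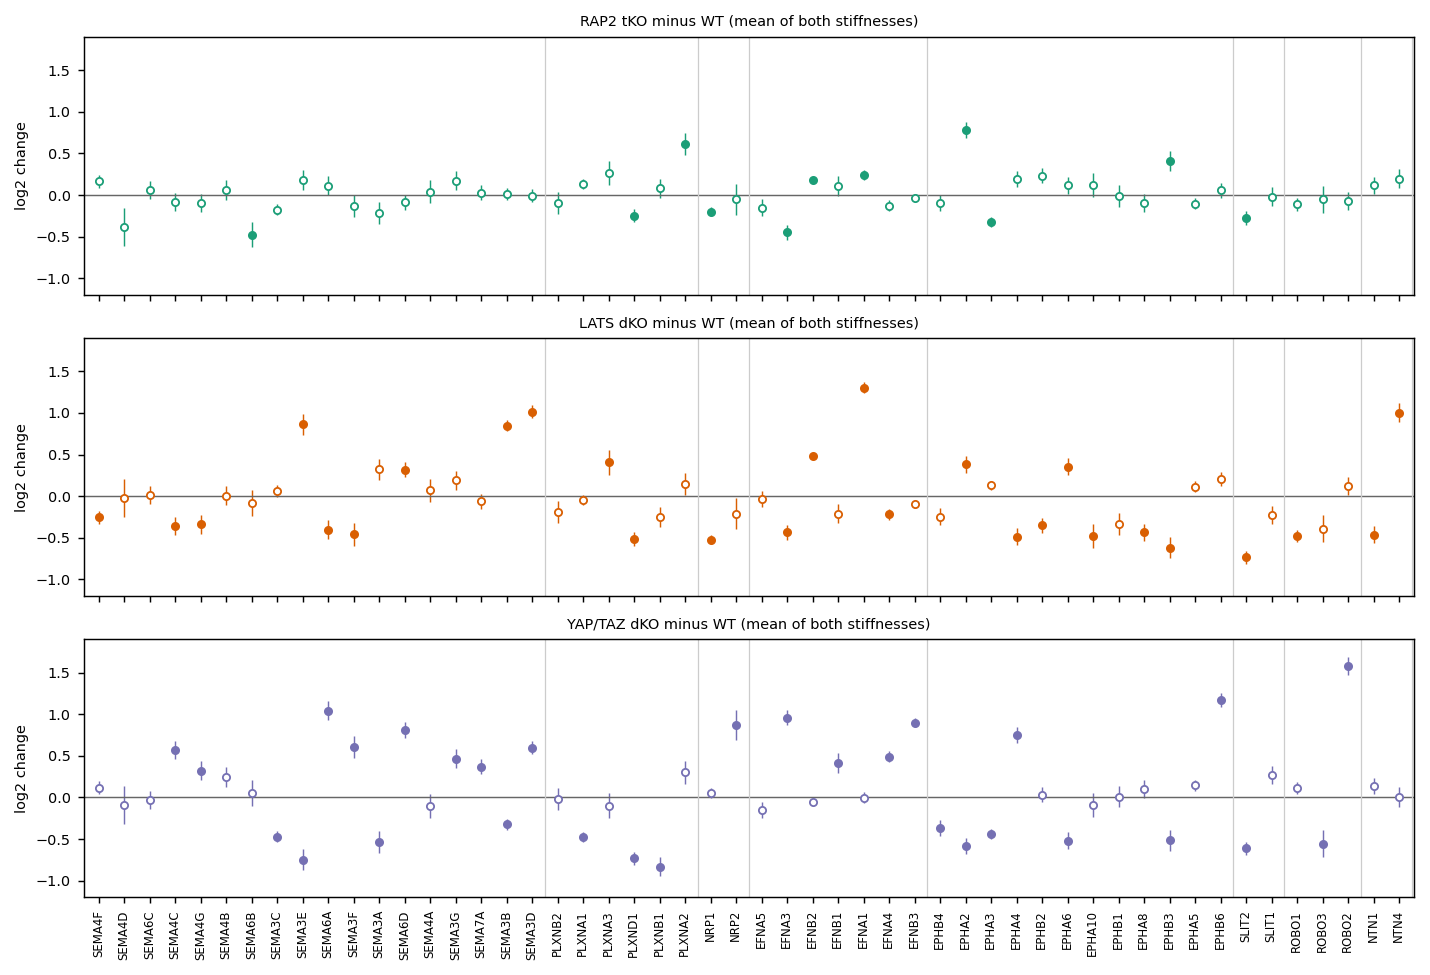
Log2 change of the 52 tested genes in each knockout line against WT (mean of both stiffnesses), by family and WT level; bars show the standard error and filled points an adjusted p below 0.05. The largest rises are EPHA2 (0.78) in the RAP2 tKO, EFNA1 (1.30) in the LATS dKO and ROBO2 (1.58) in the YAP/TAZ dKO. This ranking is on the log2(FPKM + 1) scale, which understates changes of low genes.

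Ephrins, the ligands, differed from each other in the 3 lines. EFNA1, a ligand of EPHA2 that is anchored to the outer membrane by a lipid, measured 4.93 to 5.96 FPKM in WT with a median of 5.38. In the LATS dKO it measured 13.2 to 16.2 with a median of 15.0. All 6 LATS dKO libraries were above all WT libraries, and the rise was 1.30 ± 0.06 (log2 change ± SE, adjusted p = 1.31e-11). EFNA1 also rose in the RAP2 tKO, by 0.24 ± 0.06 (adjusted p = 0.0128), where its range of 5.36 to 7.38 FPKM overlapped WT. Its change in the YAP/TAZ dKO was 0.00 with an adjusted p of 0.978. EFNB2, a transmembrane ligand of EPHB4, showed rises in the same lines as EFNA1. It measured 7.96 to 8.96 FPKM in WT (median 8.56), 11.7 to 12.7 in the LATS dKO (median 12.4) and 8.87 to 10.9 in the RAP2 tKO (median 9.86), where the lowest library overlapped WT. The rise was 0.48 ± 0.03 in the LATS dKO (adjusted p = 7.05e-10), without overlap, and 0.18 ± 0.03 in the RAP2 tKO (adjusted p = 0.000503).

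EFNA3 and EFNA4 lie next to EFNA1 on chromosome 1 (hg19), EFNA4 at 155036207 to 155042029, EFNA3 at 155051348 to 155060014 and EFNA1 at 155099936 to 155107333, and their values took another course. EFNA3 measured 8.30 to 11.4 FPKM in WT (median 9.67) and 18.1 to 21.6 in the YAP/TAZ dKO (median 19.9). The 6 YAP/TAZ dKO libraries were all higher, a rise of 0.96 ± 0.09 (adjusted p = 3.25e-08). EFNA3 fell in the LATS dKO by 0.43 (adjusted p = 0.000727) with a range of 5.60 to 7.67 FPKM, below every WT library. It fell in the RAP2 tKO by 0.45 (adjusted p = 0.00137) with an overlapping range of 4.02 to 8.88. EFNA4 rose in the YAP/TAZ dKO by 0.49 (adjusted p = 8.63e-06) and fell in the LATS dKO by 0.22 (adjusted p = 0.02). The second call was lost with the GC correction, without replicate 1 of the LATS dKO at 1 kPa and without replicate 2 of WT at 1 kPa (highest adjusted p = 0.0636). The transmembrane ligands EFNB3 and EFNB1 rose in the YAP/TAZ dKO. EFNB3 stood at 5.27 to 6.05 FPKM there against 2.47 to 2.87 in WT, a rise of 0.90 ± 0.05 (adjusted p = 4.16e-11). EFNB1 rose by 0.41 (adjusted p = 0.00631). Of 7 tested ephrins, 4 rose and 0 fell in the YAP/TAZ dKO, where 50.6% of all genes were called, 23.6% higher and 27% lower. EFNA5, the highest in WT, was called in none of the 3 lines.

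Of the 12 tested EPH receptors, 3 were called in the RAP2 tKO (2 higher), 7 in the LATS dKO (2 higher) and 7 in the YAP/TAZ dKO (2 higher). The shares of all genes called were 16%, 33.9% and 50.6%. EPHA2, whose promoter holds the GGAATG core, measured 17.2 to 24.2 FPKM in WT with a median of 22.1. It measured 30.8 to 43.5 in the RAP2 tKO (median 37.7), 20.2 to 35.1 in the LATS dKO (median 29.1) and 10.7 to 16.9 in the YAP/TAZ dKO (median 14.3). The RAP2 tKO libraries were all above WT and the YAP/TAZ dKO libraries all below it, while the LATS dKO range overlapped WT. The change was 0.78 ± 0.10 in the RAP2 tKO (adjusted p = 1.85e-05), 0.38 ± 0.10 in the LATS dKO (adjusted p = 0.00505) and -0.58 ± 0.10 in the YAP/TAZ dKO (adjusted p = 6.16e-05). EPHA4, which binds ephrins of both classes, measured 4.64 to 5.44 FPKM in WT (median 4.87). It stood below WT in the LATS dKO at 2.74 to 3.86 (median 3.21), a fall of 0.48 (adjusted p = 0.000702). It stood above WT in the YAP/TAZ dKO at 7.57 to 9.83 (median 9.38), a rise of 0.75 ± 0.10 (adjusted p = 2.96e-06). EPHA3 fell in the RAP2 tKO by 0.32 (adjusted p = 0.000505) and in the YAP/TAZ dKO by 0.44 (adjusted p = 2.53e-06).

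EPHB6, a receptor without kinase activity, stood at 0.0283 to 0.263 FPKM in WT and at 1.31 to 1.70 in the YAP/TAZ dKO. None of the YAP/TAZ dKO libraries overlapped WT, and the change was 1.17 ± 0.09, in a line that alone brought EPHB6 past the level filter. EPHB3 rose in the RAP2 tKO by 0.41 (adjusted p = 0.0283), a call lost in 10 of 21 alternatives, and fell in the LATS dKO by 0.62 (adjusted p = 0.000688) and in the YAP/TAZ dKO by 0.52 (adjusted p = 0.00181). EPHB3 averaged 1.15 FPKM and overlaps EIF2B5, which averaged 96.8 FPKM, and no source used here gives the strand setting of the counting, so its values are uncertain. In the LATS dKO EPHA10, also without kinase activity, fell by 0.48 (adjusted p = 0.0156), EPHA8 by 0.44 (adjusted p = 0.00361) and EPHB2 by 0.35 (adjusted p = 0.00668), while EPHA6 rose by 0.36 (adjusted p = 0.0139). EPHA6 fell in the YAP/TAZ dKO by 0.52 (adjusted p = 0.000441) as did EPHB4, the receptor of EFNB2, by 0.36 (adjusted p = 0.00444). EPHA5 had a WT median of 0.980 FPKM and means of 1.18 in the LATS dKO and 1.22 in the YAP/TAZ dKO, and was not called.

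**Figure D3:**
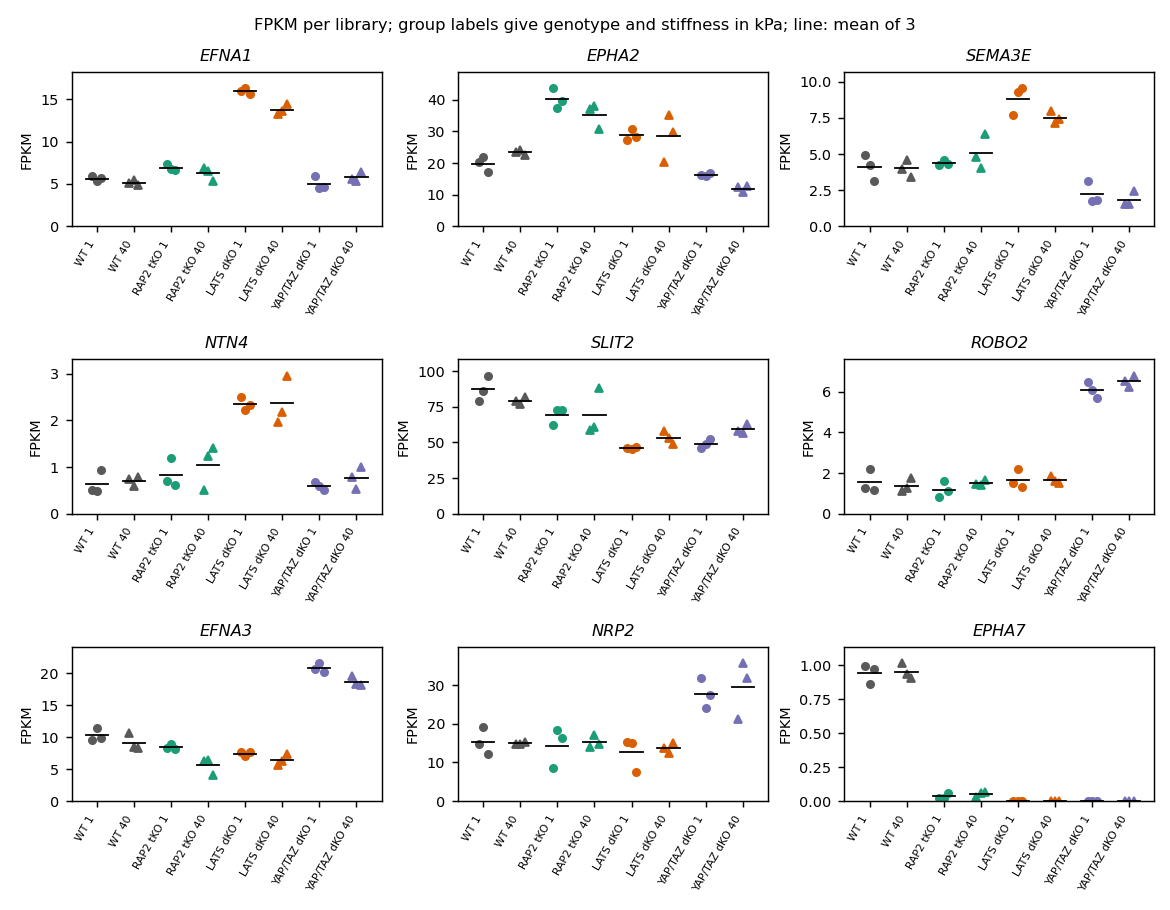
FPKM of 9 genes in every library, by genotype and stiffness (circles 1 kPa, triangles 40 kPa; the line is the mean of 3). EFNA1 is high in the LATS dKO, EPHA2 highest in the RAP2 tKO, ROBO2, EFNA3 and NRP2 high in the YAP/TAZ dKO, SLIT2 lower in both double knockouts, and EPHA7 near 1 in WT and at most 0.0652 in every knockout library.

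EPHA7, a receptor for the lipid-anchored ephrins, did not pass the level filter and is named after its values were seen. It measured 0.865 to 1.02 FPKM in the 6 WT libraries (median 0.958), with a deposited interval of 15.2% around the value in the median WT library. In the RAP2 tKO it measured 0.0246 to 0.0652 FPKM. It was listed at 0 in 6 of 6 LATS dKO libraries and in 5 of 6 YAP/TAZ dKO libraries, with 0.00344 in the remaining one. Every WT library was above every knockout library. In the alternative fit with no level filter the log2 change was -0.90 in the RAP2 tKO (adjusted p = 4.54e-16), -0.96 in the LATS dKO (adjusted p = 8.81e-17) and -0.96 in the YAP/TAZ dKO (adjusted p = 1.76e-17). EPHA7 was picked from these same libraries, so these p-values add no separate evidence. The tested genes within 5 Mb of EPHA7 on chromosome 6 (hg19, gene at 93949738 to 94129265) had a median change of -0.04 in the LATS dKO and 0.14 in the YAP/TAZ dKO. Of the other untested members, SLIT3 is described among the additional observations. NTN3 reached 1.18 FPKM in 1 YAP/TAZ dKO library, SEMA5A was listed at 0 in all 24 libraries, and the remaining members peaked between 0.0228 FPKM (ROBO4) and 0.722 FPKM (PLXNC1). The fit with no level filter also called NTN3 higher in the YAP/TAZ dKO (0.36, adjusted p = 0.0142) and SEMA5B lower in the LATS dKO (-0.43, adjusted p = 0.000195).

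SLIT2, the highest member in WT, was lower in both double knockouts. It measured 76.9 to 96.8 FPKM in WT (median 80.4), 45.3 to 57.9 in the LATS dKO (median 47.9) and 45.9 to 63.2 in the YAP/TAZ dKO (median 54.6). Neither line overlapped WT, and the falls were 0.73 (adjusted p = 1.07e-06) and 0.61 (adjusted p = 4.36e-06). SLIT2 fell in the RAP2 tKO by 0.27 (adjusted p = 0.0266) with an overlapping range of 58.4 to 87.9 FPKM, and this call was lost in 8 of 21 alternatives. ROBO1, its receptor, fell in the LATS dKO by 0.48 (adjusted p = 4.45e-05), from 51.95 to 59.3 FPKM in WT to 33.8 to 47.0. ROBO1 changed in the YAP/TAZ dKO by 0.11 (adjusted p = 0.204).

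ROBO2, another SLIT receptor, was 1.13 to 2.21 FPKM in WT with a median of 1.27. It was 5.71 to 6.78 in the YAP/TAZ dKO, with a median of 6.35. Every YAP/TAZ dKO library was above every WT library, and the rise was 1.58 ± 0.11 (adjusted p = 6.86e-10). It was the largest among the members tested on the log2(FPKM + 1) scale, which understates changes of low genes. Over the alternatives EPHB6 in this line reached 2.97 and SEMA3D in the LATS dKO 2.21, against 2.07 for ROBO2. ROBO2 was not called in the RAP2 tKO (-0.07, adjusted p = 0.748) or in the LATS dKO (0.12, adjusted p = 0.417). ROBO3, a divergent ROBO known from commissural axons, fell in the YAP/TAZ dKO by 0.55 (adjusted p = 0.00763). SLIT1 was called in none of the 3 lines, with 0.27 in the YAP/TAZ dKO (adjusted p = 0.0507).

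Both tested netrins, NTN1 and NTN4, were called in the LATS dKO, where 33.9% of all genes were called. In the fit of all libraries neither was called in the other lines. Without both GC-deviating libraries NTN1 was called higher in the RAP2 tKO (0.24, adjusted p = 9.06e-05) and in the YAP/TAZ dKO (0.13, adjusted p = 0.00188). The difference between lines was not tested. NTN4, a netrin that binds laminin in basement membranes, measured 0.490 to 0.929 FPKM in WT (median 0.676) and 1.97 to 2.96 in the LATS dKO (median 2.28). All LATS dKO libraries were above WT, with a rise of 1.01 ± 0.12 (adjusted p = 1.68e-06). NTN1, the classical attractant, fell by 0.46 (adjusted p = 0.00121), from 7.002 to 7.89 FPKM in WT to 3.93 to 5.83. The changes in the YAP/TAZ dKO were 0.00 for NTN4 (adjusted p = 0.979) and 0.13 for NTN1 (adjusted p = 0.272).

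Secreted semaphorins of class 3 differed among themselves. In the LATS dKO SEMA3E, which binds PLXND1, measured 7.15 to 9.54 FPKM (median 7.85) against 3.15 to 4.92 in WT (median 4.12). The groups did not overlap and the rise was 0.86 ± 0.12 (adjusted p = 1.91e-05). SEMA3D and SEMA3B, low in WT, were above all WT libraries in the same line. SEMA3D stood at 1.02 to 1.79 FPKM against 0.163 to 0.326 in WT, a change of 1.01 ± 0.08 in a line that alone brought it past the level filter. SEMA3B stood at 1.36 to 2.64 FPKM against 0.543 to 0.842 in WT, a change of 0.85 ± 0.07, and likewise passed the filter through this line alone. SEMA3F, which signals through NRP2, fell in the LATS dKO by 0.46 (adjusted p = 0.0126).

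SEMA3E in the YAP/TAZ dKO measured 1.53 to 3.13 FPKM (median 1.79), below every WT library, a fall of 0.75 (adjusted p = 4.62e-05). SEMA3A, the NRP1 ligand, fell by 0.53 (adjusted p = 0.00214), SEMA3C by 0.47 (adjusted p = 1.5e-05) and SEMA3B by 0.32 (adjusted p = 0.000627). SEMA3B passed the level filter only through the LATS dKO, so its fall is uncertain. It stayed under 1 FPKM in WT and in the YAP/TAZ dKO, where its deposited interval reached 84.1% of the value in the median library. SEMA3F rose by 0.60 ± 0.13 (adjusted p = 0.000969), SEMA3D by 0.60 ± 0.08 (adjusted p = 3.98e-06) and SEMA3G by 0.46 ± 0.11 (adjusted p = 0.00229). SEMA3G had a WT median of 0.952 FPKM and means of 1.17 in the RAP2 tKO, 1.17 in the LATS dKO and 1.63 in the YAP/TAZ dKO. Class 3 semaphorins rose and fell within each double knockout.

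Of 18 tested semaphorins, 8 were called higher and 4 lower in the YAP/TAZ dKO, against 23.6% and 27% of all genes. Those on the membrane called higher were SEMA4C, SEMA4G, SEMA6A, SEMA6D and SEMA7A. SEMA6A, a ligand of class A plexins, measured 5.44 to 8.07 FPKM (median 6.60) against 1.86 to 3.77 in WT (median 2.84). The libraries did not overlap, and the rise was 1.04 ± 0.12 (adjusted p = 4.65e-07). SEMA6A averaged 3.59 FPKM over all libraries and overlaps the pseudogene entry RPS14P8, which averaged 23.5 FPKM, and an antisense entry at 1.34 FPKM. Reads of these entries may not be separated from its own, so its values are uncertain. SEMA6D, also a plexin A ligand, measured 2.27 to 3.13 FPKM against 0.795 to 1.35 in WT, a rise of 0.81 ± 0.09 (adjusted p = 5.34e-07). SEMA4C, a PLXNB2 ligand, rose by 0.57 ± 0.11 (adjusted p = 0.000216), from 5.84 to 8.08 FPKM in WT to 9.79 to 11.97. SEMA7A, which is lipid-anchored, had a WT median of 0.717 FPKM and a mean of 1.24 in the YAP/TAZ dKO, the line that alone brought it past the filter. SEMA4G rose by 0.32 (adjusted p = 0.0229) but overlaps MRPL43, which averaged 83.1 FPKM against its own 5.90, and its call was lost in 4 of 21 alternatives.

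SEMA6A fell in the LATS dKO by 0.40 (adjusted p = 0.0116), SEMA4C by 0.36 (adjusted p = 0.0147), SEMA4G by 0.34 (adjusted p = 0.0277) and SEMA4F by 0.25 (adjusted p = 0.015). The call of SEMA4G was lost in 10 of 21 alternatives, among them the one without both GC-deviating libraries and the GC correction. SEMA6D rose by 0.32 (adjusted p = 0.0113), a call lost with library weights. In the fit of all libraries SEMA6B was the only semaphorin of 18 tested that was called in the RAP2 tKO, where 16% of all genes were called. It fell by 0.48 (adjusted p = 0.0428), from 4.27 to 5.54 FPKM in WT to 1.09 to 4.19, with 1.09 in the library of 40 kPa, replicate 3, that deviated in GC content. This call was lost in 13 of 21 alternatives. SEMA3C was called lower in the RAP2 tKO without both GC-deviating libraries (-0.22, adjusted p = 0.0221), with library weights and with the GC correction.

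Of the 6 tested plexins, the signalling receptors of semaphorins, 2 were called in the RAP2 tKO, 2 in the LATS dKO and 3 in the YAP/TAZ dKO, against 16%, 33.9% and 50.6% of all genes. PLXND1, the SEMA3E receptor, measured 20.0 to 25.6 FPKM in WT (median 22.4), 14.0 to 17.1 in the LATS dKO (median 15.1) and 11.1 to 14.4 in the YAP/TAZ dKO (median 13.2). Neither line overlapped WT, and the falls were 0.51 (adjusted p = 5.11e-05) and 0.73 (adjusted p = 3.25e-07). PLXND1 fell in the RAP2 tKO by 0.25 (adjusted p = 0.0375), a call lost in 10 of 21 alternatives. PLXNA2, a receptor of class 3 and class 6 semaphorins, rose in the RAP2 tKO by 0.61 ± 0.13 (adjusted p = 0.00369), from 2.58 to 4.42 FPKM in WT to 3.36 to 7.72. PLXNB1, the SEMA4D receptor, fell in the YAP/TAZ dKO by 0.83 (adjusted p = 1.1e-05), from 4.42 to 6.82 FPKM to 2.01 to 3.30 without overlap. PLXNA1 fell there by 0.48 (adjusted p = 1.32e-06). PLXNB2, the highest plexin, was called in none of the 3 lines.

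NRP1 and NRP2, the co-receptors, took separate courses. NRP1 was even across WT libraries at 18.5 to 19.1 FPKM (median 18.9), and measured 11.1 to 14.3 in the LATS dKO (median 12.9). The fall of 0.52 (adjusted p = 9.59e-07) was without overlap. NRP1 fell in the RAP2 tKO by 0.20 (adjusted p = 0.022), a call lost without replicate 1 of that line at 1 kPa or at 40 kPa (highest adjusted p = 0.0567). NRP2 measured 12.3 to 19.0 FPKM in WT (median 14.7) and 21.2 to 35.7 in the YAP/TAZ dKO (median 29.6), again without overlap, a rise of 0.87 ± 0.18 (adjusted p = 0.000631). PLXNA3 rose in the LATS dKO by 0.41 (adjusted p = 0.0412), a call lost in 12 of 21 alternatives. The tested genes within 5 Mb of it on chromosome X had a median change of 0.40 in that line, and it overlaps LAGE3.

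Some called members had neighbours on the chromosome that changed with them. For each gene tested, the median log2 change of the other tested genes within 5 Mb was taken. Members near each other counted as neighbours of each other and shared other neighbours, so their medians are not independent. In the YAP/TAZ dKO 1706 of the 15828 genes (10.8%) had such a median at or below -0.3, a limit chosen after the values were seen, and 71.6% of them were called lower. Of the 52 tested members 11 lay in such neighbourhoods, and 9 of these were called lower. PLXNA1, PLXND1, EPHA6 and EPHB3 lie on chromosome 3 with neighbourhood medians of -0.67, -0.66, -0.65 and -0.62, next to their own changes of -0.48, -0.73, -0.52 and -0.52. SEMA3A, SEMA3C and SEMA3E lie on chromosome 7 with medians of -0.47, -0.51 and -0.47, next to -0.53, -0.47 and -0.75. EPHB4 had a median of -0.40 next to its own -0.36, and ROBO3 one of -0.36 next to -0.55.

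SEMA3D, on the same stretch of chromosome 7 with a neighbourhood median of -0.50, rose by 0.60, and EPHB1, with -0.66, changed by 0.01 (adjusted p = 0.953). Of the 41 members elsewhere, 15 rose and 5 fell in the YAP/TAZ dKO, the 5 being SEMA3B, PLXNB1, EPHA2, EPHA3 and SLIT2. Of the 14120 genes elsewhere 26.1% were called higher and 21.6% lower. Among the 15 members that rose, EPHB6 and SEMA7A passed the level filter only through the YAP/TAZ dKO, so their rises say little beyond their levels. SEMA3B, among the 5 that fell, passed it only through the LATS dKO and was under 1 FPKM in WT and in the YAP/TAZ dKO. The 4 largest rises on the log2(FPKM + 1) scale had neighbourhood medians of 0.09 for ROBO2, 0.07 for EPHB6, -0.20 for SEMA6A and 0.10 for EFNA3. EPHA8 and EPHB2 had LATS dKO medians of -0.27 and -0.25 next to their own -0.44 and -0.35. EFNA1, by contrast, had 0.03 next to 1.30. The part of the neighbourhood in these changes was not tested.

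**Figure D4:**
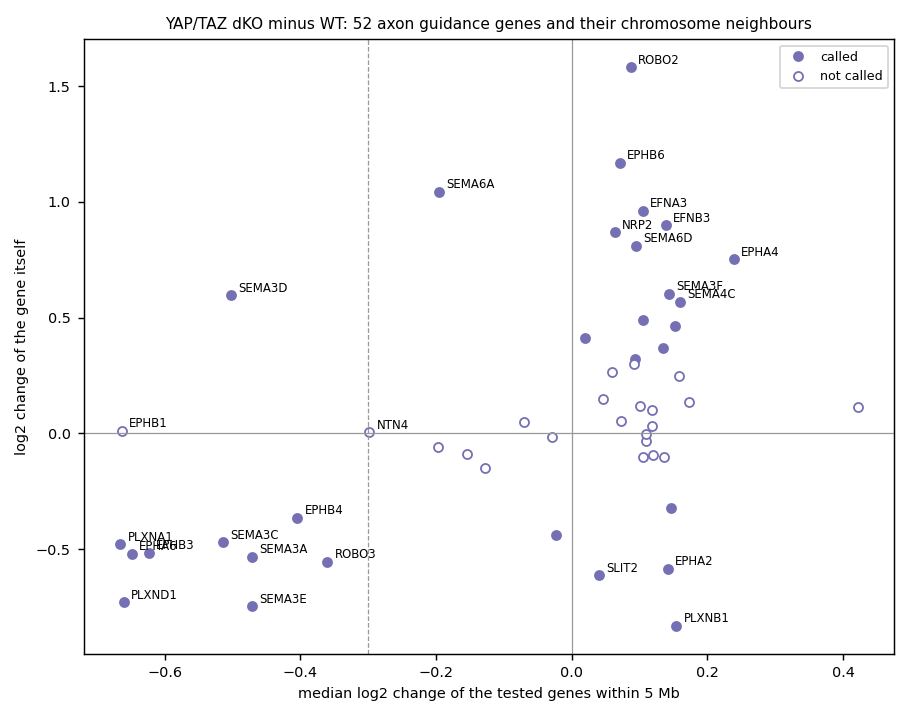
Log2 change of each of the 52 tested genes in the YAP/TAZ dKO against WT (vertical) by the median change of tested genes within 5 Mb (horizontal); filled points were called and the dashed line marks -0.3. Of 11 genes left of the line, 9 were called lower, while ROBO2, EPHB6, EFNA3 and EFNB3 rose with neighbourhood medians between 0.07 and 0.14. EPHB6 passed the level filter only through the YAP/TAZ dKO.

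Other genes of the same pathways, from lists drawn from textbook knowledge, were read beside the members and against the 16%, 33.9% and 50.6% of all genes called in the RAP2 tKO, in the LATS dKO and in the YAP/TAZ dKO. Of 7 tested netrin receptors and partners, 4 were called in the RAP2 tKO (1 higher), 6 in the LATS dKO (1 higher) and 6 in the YAP/TAZ dKO (4 higher). FLRT2, a ligand of UNC5 receptors, rose in all 3 lines, by 0.42, 0.99 and 1.30 in the RAP2 tKO, in the LATS dKO and in the YAP/TAZ dKO. UNC5C, a repulsive netrin receptor, fell in all 3, by 0.24, 0.78 and 0.78. UNC5B fell by 0.78 in the LATS dKO and rose by 0.57 in the YAP/TAZ dKO. RGMA, a neogenin ligand, fell by 0.81 in the LATS dKO and rose by 0.82 in the YAP/TAZ dKO. FLRT3, a relative of FLRT2, fell by 0.55 in the RAP2 tKO, 0.60 in the LATS dKO and 0.78 in the YAP/TAZ dKO.

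Of 15 tested co-receptors and effectors of semaphorins, 2 were called in the RAP2 tKO (1 higher), 6 in the LATS dKO (1 higher) and 10 in the YAP/TAZ dKO (5 higher), where the shares of all genes were the same 16%, 33.9% and 50.6%. L1CAM, an adhesion molecule that partners NRP1, rose by 1.24 in the LATS dKO and fell by 0.44 in the YAP/TAZ dKO. DPYSL4, a cytoplasmic phosphoprotein of the semaphorin response, rose by 0.75 in the RAP2 tKO and fell by 0.99 in the LATS dKO. Its relative DPYSL2 rose by 0.88 in the YAP/TAZ dKO. Of 7 tested SLIT and ROBO effectors, 3 were called in each double knockout (2 higher and 1 lower). SRGAP1, a GTPase-activating protein that binds ROBO1, rose by 0.64 in the LATS dKO. Of 17 tested ephrin and EPH effectors, 2 were called in the RAP2 tKO (1 higher), 5 in the LATS dKO (1 higher) and 8 in the YAP/TAZ dKO (2 higher), none of these shares above that of all genes. NGEF, an exchange factor downstream of EPHA4, rose by 0.94 in the YAP/TAZ dKO and PAK2, a kinase acting on the cytoskeleton, fell by 0.80.

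Markers of other cell types moved with genotype too. The summed level of 9 neuronal markers was 29.7 to 33.6 FPKM in WT, 24.02 to 32.5 in the RAP2 tKO, 27.6 to 34.3 in the LATS dKO and 476 to 576 in the YAP/TAZ dKO. NEFL made up most of the last sum, at 535 FPKM on 1 kPa and 457 on 40 kPa, while NEFM, NEFH, STMN2 and SNAP25 stayed under 1 FPKM in every library. SYP (0.80) and TUBB3 (0.55) also rose in the YAP/TAZ dKO, and MAP2 and RBFOX3 fell by 0.61 and 0.49. The sum of 5 epithelial markers was 273 to 487 FPKM in WT, 520 to 598 in the RAP2 tKO, 862 to 960 in the LATS dKO and 74.4 to 90.003 in the YAP/TAZ dKO. KRT8 and KRT18 carried it, and CLDN7 fell by 0.54 in the RAP2 tKO, against the direction of the sum. The sum of 6 kidney epithelium markers was 3.26 to 5.83 FPKM in WT, 2.35 to 5.11 in the RAP2 tKO, 1.19 to 2.49 in the LATS dKO and 7.38 to 9.15 in the YAP/TAZ dKO. LHX1 fell by 1.32 in the LATS dKO and rose by 0.87 in the YAP/TAZ dKO. The sum of 7 fibroblast markers was 5.56 to 7.04 FPKM in WT and 22.8 to 27.0 in the LATS dKO, with PDGFRA, PDGFRB, DCN and COL1A2 under 1 FPKM throughout. The sum of 6 immune markers was 5.14 to 8.15 FPKM in WT and 5.12 to 8.29 in the RAP2 tKO. It was 3.04 to 5.01 in the LATS dKO and 3.73 to 6.92 in the YAP/TAZ dKO. PTPRC and CD3E stayed under 1 FPKM throughout, and CD68 fell by 0.41 in the LATS dKO and by 0.38 in the YAP/TAZ dKO. None of 5 endothelial markers found in the tables reached 1 FPKM. The known YAP and TAZ targets CTGF, CYR61 and ANKRD1 summed to 21.9 to 60.4 FPKM in WT, 93.8 to 198 in the RAP2 tKO, 224 to 285 in the LATS dKO and 4.60 to 5.34 in the YAP/TAZ dKO. The part of these shifts in the changes of guidance genes was not tested.

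Between 40 and 1 kPa limma called 0 of the 52 members in WT, where 0.986% of all genes were called, 0.322% higher and 0.663% lower. At an unadjusted p below 0.05 there were 3, PLXNA3 (-0.55, adjusted p = 0.262), SEMA4A (-0.43, adjusted p = 0.381) and EFNB2 (0.10, adjusted p = 0.387). PLXNA3 averaged 34.7 ± 7.96 FPKM on 1 kPa and 23.4 ± 5.29 on 40 kPa (SD, n = 3). Without both GC-deviating libraries, which alters the spread shared by all groups, 1 member was called, SEMA4C (-0.29, adjusted p = 0.0473). Limma called 0 members in the YAP/TAZ dKO, against 0.347% of all genes (0.12% higher, 0.227% lower), with 3 at an unadjusted p below 0.05. These were SEMA4D (-0.72, adjusted p = 0.602), EPHA2 (-0.43, adjusted p = 0.329) and SLIT2 (0.27, adjusted p = 0.588). Without both GC-deviating libraries EPHA2 was called for stiffness in this line (-0.43, adjusted p = 0.0145). With library weights EPHA2 (-0.44, adjusted p = 0.00471) and SLIT2 (0.26, adjusted p = 0.0344) were called.

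In the RAP2 tKO 3 members were called for stiffness, all lower on 40 kPa, against 3.87% of all genes (2.88% lower). SEMA4C measured 8.62, 9.59 and 8.36 FPKM on 1 kPa and 6.27, 5.24 and 3.09 on 40 kPa, a fall of 0.79 (adjusted p = 0.00697). EFNA3 measured 8.23, 8.88 and 8.11 on 1 kPa and 6.33, 6.36 and 4.02 on 40 kPa, a fall of 0.54 (adjusted p = 0.0204). PLXND1 measured 24.2, 19.4 and 21.8 on 1 kPa and 17.4, 17.0 and 13.0 on 40 kPa, a fall of 0.45 (adjusted p = 0.0321). The 2 stiffnesses did not overlap in these genes, which adds no separate evidence because the genes were picked as called. The third 40 kPa library, the one that deviated in GC content, was the lowest each time. Without it SEMA4C changed by -0.55 (adjusted p = 0.02), EFNA3 by -0.36 (adjusted p = 0.0794) and PLXND1 by -0.32 (adjusted p = 0.148), which left 1 call. Without both GC-deviating libraries EFNA3 passed (adjusted p = 0.0326) and PLXND1 did not (adjusted p = 0.0885). With the GC correction PLXND1 changed by -0.12 (adjusted p = 0.604) and EFNA3 by -0.25 (adjusted p = 0.113).

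Stiffness called 1 member in the LATS dKO, against 0.708% of all genes (0.0885% higher, 0.619% lower). SEMA3B measured 2.56, 2.58 and 2.64 FPKM on 1 kPa and 1.36, 1.76 and 1.68 on 40 kPa, without overlap, a fall of 0.47 (adjusted p = 0.0359). In WT SEMA3B averaged 0.820 ± 0.0235 FPKM on 1 kPa and 0.584 ± 0.0362 on 40 kPa (SD, n = 3). The call in the LATS dKO was lost in 9 of 15 alternatives, among them the one without replicate 1 of 40 kPa (-0.40, adjusted p = 0.129).

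The difference of the stiffness response between each knockout line and WT was tested directly. Limma called 0 members for the RAP2 tKO, against 0.0505% of all genes (0.0126% higher, 0.0379% lower), with 6 members at an unadjusted p below 0.05. For the LATS dKO it called 0, against 0.0632% of all genes (0.019% higher, 0.0442% lower), with 0 at an unadjusted p below 0.05. For the YAP/TAZ dKO it called 0, against 0.392% of all genes (0.259% higher, 0.133% lower), with 3 at an unadjusted p below 0.05. PLXND1 had the smallest p in the RAP2 tKO. It averaged 21.0 FPKM on 1 kPa and 23.4 on 40 kPa in WT, and 21.8 and 15.8 in the RAP2 tKO, a difference of responses of -0.60 ± 0.16 (adjusted p = 0.426). EPHA2 had the smallest p in the YAP/TAZ dKO. It averaged 19.7 FPKM on 1 kPa and 23.4 on 40 kPa in WT, and 16.3 and 11.9 in the YAP/TAZ dKO, a difference of -0.67 ± 0.20 (adjusted p = 0.203). Without both GC-deviating libraries EPHA2 was called in this comparison (-0.67, adjusted p = 0.0065), as was SLIT2 (0.40, adjusted p = 0.0459). The stiffness responses of these members in the knockout lines were therefore not shown to differ from WT in the fit of all libraries.

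**Figure D5:**
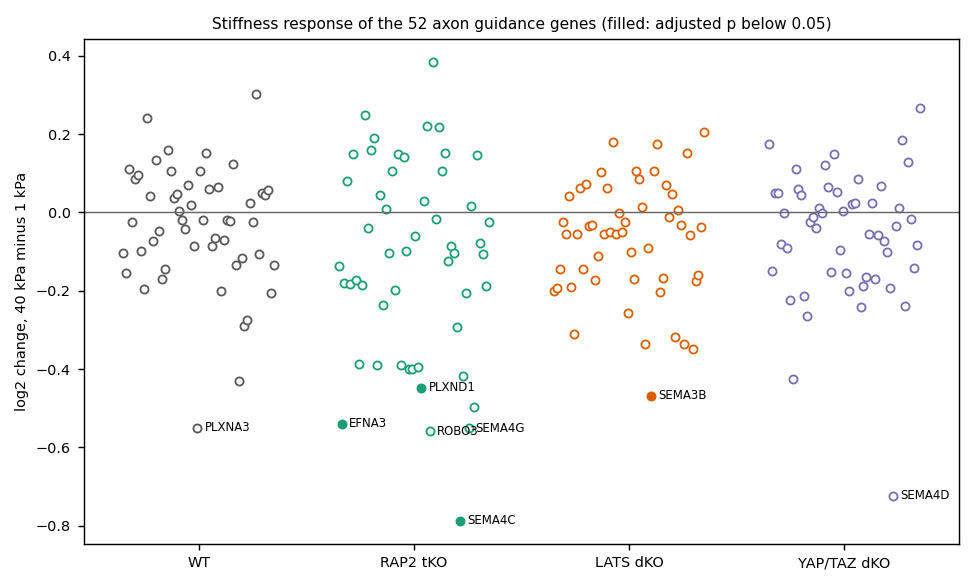
Log2 change from 1 to 40 kPa of the 52 tested genes in each genotype, 1 point per gene; filled points had an adjusted p below 0.05. SEMA4C, EFNA3 and PLXND1 in the RAP2 tKO and SEMA3B in the LATS dKO are the 4 filled points, all below 0.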

How the data were processed

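Gene-level FPKM values of 24 HEK293A libraries (TruSeq Stranded mRNA, per the labels' protocols) were used as the authors deposited them. The authors made them with STAR 2.4.2a and Cufflinks 2.2.1 on hg19, per the submitters' processing notes. Entries of a symbol were summed, and 92 of 58266 symbols were left out because an entry had no usable estimate. Locus starts had 1 added. Log2(FPKM + 1) was fitted with limma 3.58.1 (R 4.3.3), with a trend of the spread with level and all 8 groups in 1 fit (residual degrees of freedom 16), for 15828 genes at 1 FPKM or more in at least 3 libraries. The tests were two-sided with Benjamini-Hochberg adjustment within each of 10 contrasts. The fit was tested on simulated data. Depth, in M (mega) fragments, is an estimate from the deposited intervals, and counts were not used here. The kit comes in sets A and B and no label ties a library to one, so no batch could be tested. Named were the members called in a contrast (up to 10 per direction), the 3 highest in WT of each family group, and members under 1 FPKM in WT that averaged at least 1 elsewhere. Other genes named were called genes of the pathway lists (up to 4 per direction), edited genes and markers. Members and lists were chosen with earlier results of these data known. Alternatives were another pseudocount, no filter, scaling, library weights, a replicate block, fewer groups and libraries left out. A GC correction in 50 bins and a fit without the trend were added after seeing the data. One marker list and 1 pathway gene are not reported here.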

Additional observations from a re-analysis of the deposited data

Results flagged for a closer look

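SLIT3, a SLIT ligand under 1 FPKM in most libraries, was not tested. It was flagged among the untested members because its lowest YAP/TAZ dKO library lay above its highest WT library. It measured 0.493 to 1.14 FPKM in the 6 YAP/TAZ dKO libraries (mean 0.823) and 0.110 to 0.233 in WT (median 0.143). With no level filter its change was 0.64 (limma, adjusted p = 3e-06). The flag looked only for rises over WT and used the same libraries, so this p-value adds no separate evidence.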

How the results depend on the processing

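Of 11 calls in the RAP2 tKO against WT, 6 held in each of 21 alternatives, as did 23 of 27 in the LATS dKO and 29 of 30 in the YAP/TAZ dKO, and no direction reversed. None of the 4 stiffness calls held in each of its 15. The counts of members below are given without the shares of all genes under the same settings, so they describe stability only. With library weights the count was 18 for the RAP2 tKO against WT, 4 for stiffness in the LATS dKO, 2 for stiffness in the YAP/TAZ dKO and 2 for its difference from WT. With only the groups of the contrast it was 7 for the RAP2 tKO, 0 for stiffness in the RAP2 tKO and in the LATS dKO, and 1 for the difference in the YAP/TAZ dKO. Stiffness in the LATS dKO gave 0 also with a pseudocount of 0.1, with scaling, with the GC correction and with the replicate block. Without both GC-deviating libraries, stiffness gave 1 in WT, 2 in the RAP2 tKO and 1 in the YAP/TAZ dKO, and the difference in the YAP/TAZ dKO gave 2. The GC correction gave 1 there. Leaving out each replicate gave 1 to 7 for stiffness in the RAP2 tKO (1 without 40 kPa replicate 3, 7 without 40 kPa replicate 1), 0 to 1 in the LATS dKO, 0 in WT and in the YAP/TAZ dKO, 8 to 13 for the RAP2 tKO against WT, 24 to 30 for the LATS dKO and 29 to 31 for the YAP/TAZ dKO. The causes of these shifts were not tested. Libraries with the same replicate number did not deviate together (84 pairs, correlations of -0.247 to 0.149, 3 above 0.1, and 7 of 24 libraries correlating best with their own number). No pairing by number was seen this way, and a weak one could be missed. With the replicate block the counts against WT were 10, 27 and 31. Depth limits the low members most. The deposited interval of EPHB6 reached 182% of its value in the median library, and 40.3% in the median YAP/TAZ dKO library.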
